A study of Mus musculus with 2 samples.

Results

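The genes described here are 45 genes of hepatic lipid metabolism, of the 21938 protein-coding genes that GENCODE vM21 places on mouse chromosomes 1 to 19, X and Y (mm10, the same build as GRCm38). They were taken by name and cover the regulators of lipid synthesis (6 genes), fatty acid synthesis and remodelling (10), triglyceride synthesis (6), lipid droplets and lipolysis (6), fatty acid oxidation (7), cholesterol synthesis (1) and lipoproteins with lipid uptake and efflux (9). For each gene, the ChIRP-seq peaks of the lncRNA *Gm19619* lying inside the gene or at most 5000 bp from either end were collected, so that a gene "with a peak" below means a peak touching this window. ChIRP retrieves an RNA with biotinylated antisense DNA probes, together with the chromatin fixed around it, and the DNA that comes along is sequenced. Primary hepatocytes of 4 female wild-type C57BL/6 mice aged 8 weeks were fixed in 3% formaldehyde for 10 min, and their chromatin was pooled and incubated with the odd-numbered or the even-numbered probes, 7 per set. Only 1 library was made per set. Replicates are therefore missing, no test between groups was possible, and the values below carry no replicate error. No library without probes, with unrelated probes or after RNase treatment was analysed here, and the files hold DNA regions only, so that the labelled cell type could not be checked against marker genes.

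In the liver, SREBP and ChREBP transcription factors switch on the enzymes that turn acetyl-CoA into fatty acids, which are then elongated, desaturated and esterified to triglyceride. Triglyceride is stored in droplets, broken down by lipases, or loaded onto lipoproteins for export, and fatty acids are burned in mitochondria after transfer to carnitine. Carbohydrate feeding favours the first route and fasting the last.

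After removal of duplicates, 6972538 odd and 7052802 even reads were left, 11.4% and 10.7% of the mapped reads. At this nearly equal depth the odd list held 14261 peaks and the even list 3637. The height of a peak is given as its pileup, the number of extended reads over the summit, and as fold enrichment, the pileup plus 1 over the genome-wide background of the library plus 1. The median pileup was 11 in the odd and 9 in the even list. The *Gm19619* gene itself (chr5:91257571-91283421) held 5 odd peaks with pileups of 9 to 114 and 3 even peaks with pileups of 20 to 101, which sets the scale for the heights at the lipid genes.

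Odd peaks lay at 24 of the 45 lipid genes (53.3%, 95% Wilson interval 39.1 to 67.1), whereas 27.0% of all protein-coding genes had an odd peak. Even peaks lay at 8 lipid genes (17.8%, 9.29 to 31.3), against 7.67% of all protein-coding genes. Both an odd and an even peak were found at 5 lipid genes, *Elovl6*, *Gpam*, *Plin2*, *Pnpla3* and *Abca1* (11.1%, against 4.29% of all genes), and a peak of either list at 27 (60.0%, against 30.4%). No lipid gene held a peak at which the odd and even lists overlapped by at least 1 bp, while 0.884% of all protein-coding genes did, and 0 of 45 genes allows a share of up to 6.67%. The intervals and this limit cover counting error only. In all, 37 odd and 8 even peaks were collected, and no peak was shared by the windows of different lipid genes. Of the odd peaks, 30 touched the gene, 6 lay downstream and 1 upstream, and of the even peaks 7 touched the gene and 1 lay downstream.

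**Figure D1:**
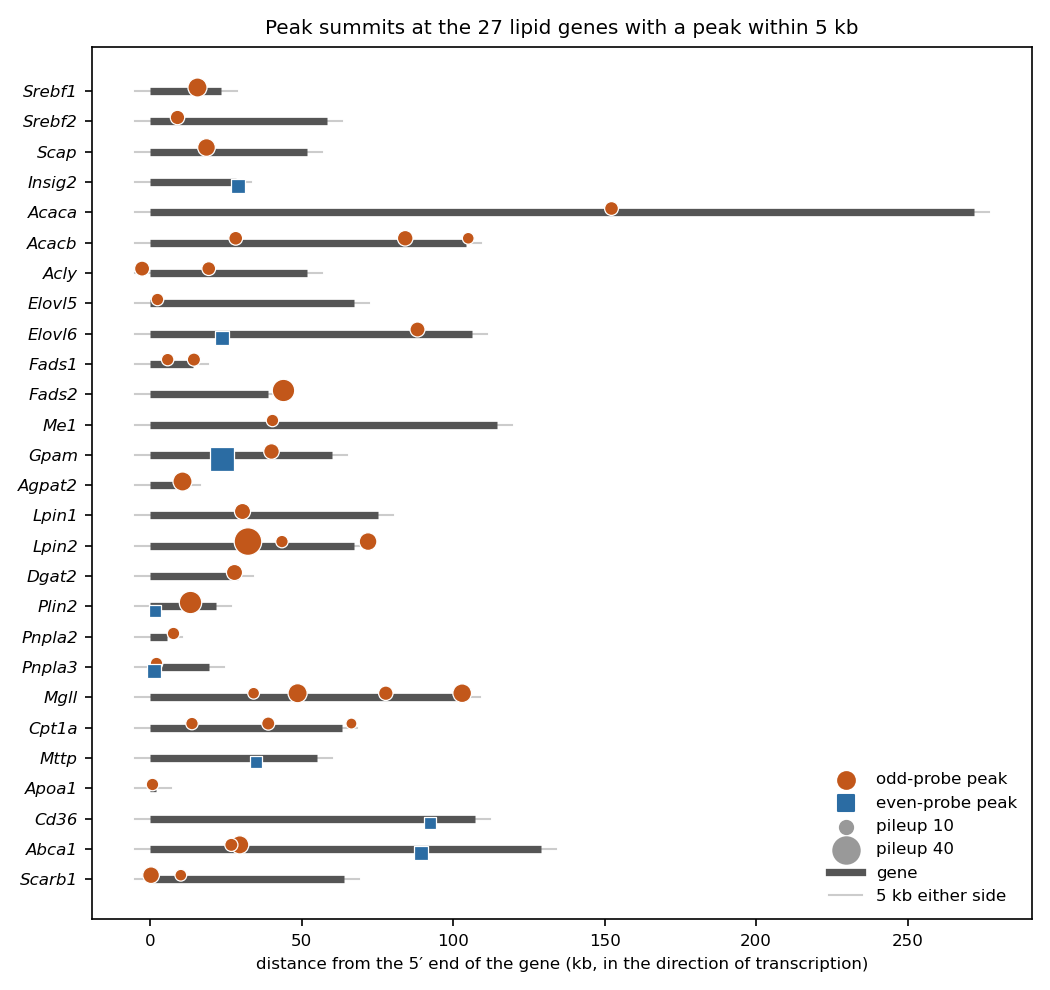
Position of every odd (circles) and even (squares) peak summit at the 27 lipid genes with a peak, in kb from the 5′ end of the gene along the direction of transcription, with symbol area in proportion to pileup and circles set slightly above squares to separate them. The dark bar is the gene and the thin line the 5 kb either side. Most summits lie inside genes, the largest symbols are the odd peak of *Lpin2* (pileup 44) and the even peak of *Gpam* (pileup 33), and odd and even summits come close to each other only at *Pnpla3*.

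The lipid genes were longer than most, with a median length of 32.4 kb (1.89 to 272) against 17.4 kb for all protein-coding genes, and longer genes held peaks more often. Each lipid gene was therefore set beside the protein-coding genes that were at most 25% longer, or shorter by the same factor. The shares of these genes with a peak added up to 14.3 lipid genes with an odd peak (31.9%) and 3.78 with an even peak (8.40%). The 24 and 8 genes observed were 1.67 and 2.12 times these sums. The ratio for even peaks fell to 1.10 (3 genes against 2.72) without the peaks that held 12 bases of a probe, described below. For odd peaks it was then 1.86 (21 genes against 11.3). With peaks of at least 10-fold enrichment only, 1 gene had an even peak against a sum of 0.803. By role, the observed count was above the sum for triglyceride synthesis (5 of 6 genes with an odd peak, sum 1.89), fatty acid synthesis and remodelling (8 of 10, sum 4.15) and lipid droplets and lipolysis (4 of 6, sum 1.47). It was near the sum for lipoproteins, uptake and efflux (3 of 9, sum 3.08) and below it for fatty acid oxidation (1 of 7, sum 1.80). For the regulators it was 3 of 6 (sum 1.73). Even peaks lay at 3 of 9 lipoprotein, uptake and efflux genes (sum 0.832) and at 2 of 6 genes of lipid droplets and lipolysis (sum 0.388), the same share of 33.3%. For the regulators and for triglyceride synthesis the even count was 1 of 6 each (sums 0.405 and 0.447). The even count was below the sum for fatty acid synthesis and remodelling (1 of 10, sum 1.203) and fatty acid oxidation (0 of 7, sum 0.453). The cholesterol synthesis gene had no even peak (sum 0.0531). These are small counts, and no test was run on them. The share of G and C, which was not part of this matching, was also higher in the windows of the lipid genes (median 48.3%) than in those of all protein-coding genes (44.6%). With similar genes chosen for length and for this share together, a setting added after seeing the data, the sums were 15.7 and 4.03.

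**Figure D2:**
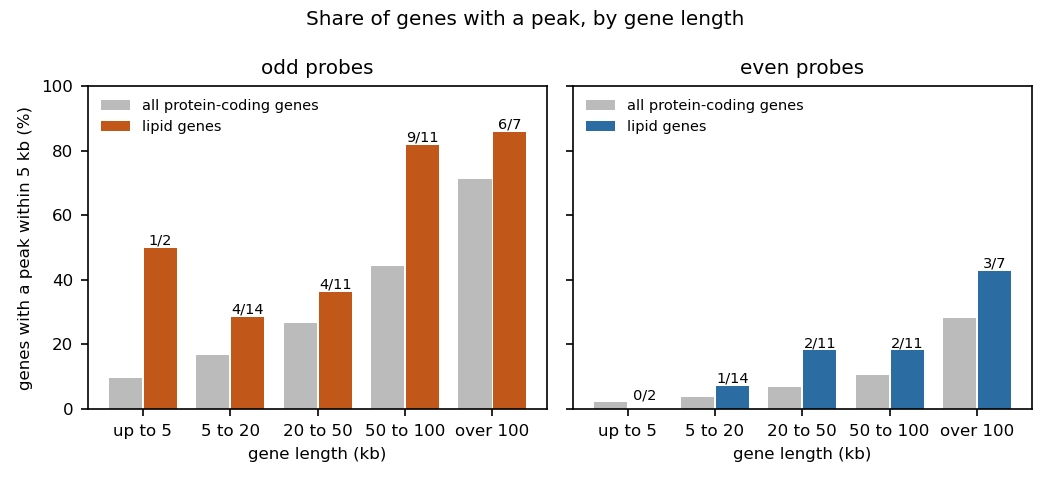
Percentage of genes with an odd (left) or even (right) peak within 5 kb, by gene length in kb, for all protein-coding genes (grey) and for the lipid genes (coloured), with the number of lipid genes with a peak over the number in the class above each bar. The grey bars rise from 9.61% to 71.1% for odd and from 2.08% to 28.1% for even peaks, and the odd bars of the lipid genes are higher in each class, from 1 of 2 genes up to 5 kb to 6 of 7 over 100 kb.

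The runs of probe sequence inside these peaks are shown before the genes are described, since each probe can pair with any DNA that resembles its target. A peak was scored when it held at least 12 consecutive bases of a probe of its own set on either strand. The search used the 11 probes that match *Gm19619* in full (probes 5, 10 and 12 did not). The target sites of the 4 probes concerned are given first, as read from the genome or, for probe 2, from the annotated spliced RNA. Capitals mark the bases that any of the peaks below contained.
Probe 7, odd set, chr5:91258494-91258513, plus strand: gGGAACTGAGCTGTGAGatg
Probe 9, odd set, chr5:91258311-91258330, plus strand: ctatgggtTCTGGACAGCTC
Probe 2, even set, spliced across chr5:91280893-91281429, plus strand: GACACTGAGCCCAATAGaat
Probe 14, even set, chr5:91257764-91257783, plus strand: GTGGCATACTGTCatatata

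Runs of this kind lay in 5 of the 37 odd peaks (13.5%, Wilson interval 5.91 to 28.0) and in 5 of the 8 even peaks (62.5%, 30.6 to 86.3). Over the peaks at all protein-coding genes the shares were 27.2% and 25.3%. The interval of the odd share held the 27.2%, and that of the even share, which rests on 8 peaks, lay above the 25.3%. The differences were not tested. No peak at a lipid gene held a run of 12 bases from the other probe set, which for 0 of 37 and 0 of 8 peaks allows shares of up to 8.11% and 37.5%. Such runs were rare over the peaks at all protein-coding genes as well, in 0.237% of odd and 1.67% of even peaks. Each run is printed with 8 bases on either side, in the direction of the probe, and the capitals are the bases shared with it (GRCm38).
*Elovl6*, odd, probe 7, chr3:129620430-129620457, plus strand: aagcagctCTGAGCTGTGAGctgtagat
*Plin2*, odd, probe 7, chr4:86656883-86656912, plus strand: aagaccatAACTGAGCTGTGAGtgaccata
*Mgll*, odd, probe 7, chr6:88758457-88758484, minus strand: gggattgtGGAACTGAGCTGgatccctt
*Apoa1*, odd, probe 7, chr9:46229345-46229372, plus strand: aagatgctGGAACTGAGCTGgctagccc
*Mgll*, odd, probe 9, chr6:88827321-88827348, minus strand: gagggggcTCTGGACAGCTCctgggccc
*Gpam*, even, probe 2, chr19:55103559-55103587, minus strand: ttctgaaaGACACTGAGCCCAccccttcc
*Plin2*, even, probe 2, chr4:86668324-86668352, minus strand: tgcggtcaACACTGAGCCCAAgggactgg
*Pnpla3*, even, probe 2, chr15:84169204-84169232, plus strand: ggagggctCTGAGCCCAATAGcgatggat
*Mttp*, even, probe 2, chr3:138110134-138110161, minus strand: aggatcacCACTGAGCCCAAatgattcc
*Elovl6*, even, probe 14, chr3:129555968-129555996, minus strand: aacccaagGTGGCATACTGTCcccaaagc

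The runs of probe 7 at *Elovl6*, *Plin2*, *Mgll* and *Apoa1* had 8 bases in common, and those of probe 2 at *Gpam*, *Plin2*, *Pnpla3* and *Mttp* had 9. Probe 7 was also the odd probe with the most such peaks in the whole list (1600), and probe 2 the even probe with the most (543). The distance from the summit to the run had a median of 50 bp (0 to 180) in the odd and 16 bp (0 to 108) in the even peaks. At both *Elovl6* peaks the summit lay on the run, and at the even *Plin2* peak it lay 2 bp away, whereas at *Apoa1* it lay 180 bp away. The pileups of the odd peaks with a run were 8 to 29 (median 13) and of those without 7 to 44 (median 11.5). The highest odd peak was thus among those without a run. The part of probe pairing with DNA in these peaks was not tested.

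**Figure D3:**
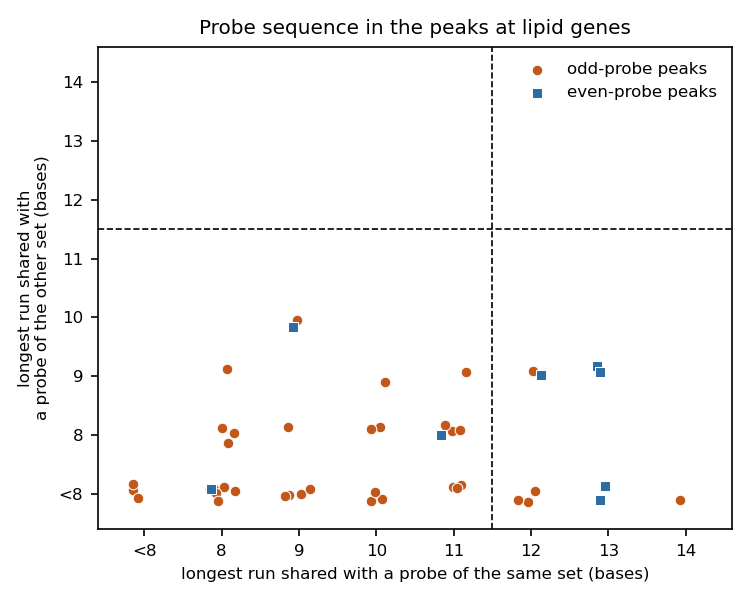
Longest run of bases that each of the 37 odd (circles) and 8 even (squares) peaks at lipid genes shared with a probe of its own set (horizontal) and of the other set (vertical), with small random offsets to separate points and runs under 8 bases drawn at the first tick. The dashed lines mark the limit of 12 bases. Of the points, 5 odd and 5 even peaks lie to the right of the vertical line and none lies above the horizontal line.

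Among the regulators, *Srebf1*, *Srebf2* and *Scap* had an odd peak and *Insig2* an even peak. *Srebf1* encodes SREBP, the factor that drives the lipogenic enzymes, and its peak (chr11:60207054-60207499, pileup 21, 14.5-fold) lay over exon 2. Exons and introns are numbered here on the transcript with the longest coding sequence. The summit was 15352 bp from the 5′ end of the gene and 41 bp before another annotated start of the gene, and 15.0% of the odd list was as high or higher. The peak of *Srebf2*, whose product mainly drives cholesterol synthesis, lay in intron 1 (chr15:82155983-82156285) with a pileup of 12. *Scap*, the escort that carries SREBP from the endoplasmic reticulum to the Golgi, had a pileup of 18 (12.5-fold), also in intron 1 (chr9:110351441-110351852). At *Insig2*, which holds SCAP back in the endoplasmic reticulum, the even peak (chr1:121303448-121303735, pileup 10) lay 618 bp past the gene end. Its paralogue *Insig1* and *Mlxipl*, which encodes ChREBP, had no peak, and their nearest odd peaks were 39.1 and 124 kb away. The 200 bp around the *Srebf1* summit are printed in the direction of the gene, with exon bases in capitals, to show that the summit lay over coding sequence (a window chosen after its values were seen).
*Srebf1*, odd, chr11:60207129-60207328, minus strand: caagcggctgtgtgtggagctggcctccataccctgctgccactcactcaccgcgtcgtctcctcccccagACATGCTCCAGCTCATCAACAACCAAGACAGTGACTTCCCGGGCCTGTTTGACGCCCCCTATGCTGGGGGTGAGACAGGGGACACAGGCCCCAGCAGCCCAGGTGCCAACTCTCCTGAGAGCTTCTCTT

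In fatty acid synthesis and remodelling, 8 of 10 genes had an odd peak, and only *Elovl6* also had an even peak. *Acly*, *Acaca*, *Fasn* and *Me1* make up the core of the pathway, supplying acetyl-CoA, malonyl-CoA, palmitate and NADPH. *Acly* had an odd peak in intron 11 (chr11:100508639-100508841, pileup 11) and another 2654 bp upstream of the gene (chr11:100530654-100530882, pileup 13), of which 90.8% was repeat-masked sequence. *Acaca*, the longest of the 45 genes, had a single odd peak in intron 29 (chr11:84281506-84281902, pileup 11), and 79.8% of genes of its length had at least 1. *Me1* had an odd peak with a pileup of 9 in intron 3 (chr9:86655363-86655765), 72.0% of it repeat-masked. *Fasn*, which encodes fatty acid synthase, had none, with the nearest odd peak 122 kb and the nearest even peak 176 kb away.

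*Acacb*, the acetyl-CoA carboxylase of the outer mitochondrial membrane, had 3 odd peaks, and 5.90% of genes of its length had as many or more. They lay in intron 2 (chr5:114174623-114174902, pileup 11), in intron 36 reaching exon 37 (chr5:114230409-114230801, pileup 14) and 613 bp downstream (chr5:114251374-114251573, pileup 8). The peak in intron 2 held 12 bases of probe 5, which was left out of the search because it does not match *Gm19619* in full. At *Elovl6*, which elongates saturated fatty acids, the odd peak (chr3:129620266-129620564, pileup 13) lay in intron 3 and the even peak (chr3:129555962-129556173, pileup 11) in intron 2, with 64092 bp between them. *Elovl5*, the elongase of polyunsaturated fatty acids, had an odd peak with a pileup of 9 in intron 1, 2194 bp from its 5′ end (chr9:77919465-77919737).

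The desaturase genes differed. *Fads1* had 2 odd peaks, in intron 5 (chr19:10188576-10188830, pileup 9) and 294 bp downstream (chr19:10197171-10197636, pileup 10), and 2.49% of genes of its length had as many or more. The peak counted for *Fads2* was higher (chr19:10057595-10058113, pileup 29, 19.8-fold, reached by 6.54% of the odd list), but it lay 4652 bp past the end of *Fads2* and inside the neighbouring desaturase gene *Fads3*. *Scd1*, the stearoyl-CoA desaturase, was just outside the limit, with an odd peak of pileup 17 at 5274 bp. The limit of 5000 bp also decided the peak of *Lpin2* at 4491 bp (pileup 18), and left out odd peaks at 6265 bp from *Insig2* (pileup 17) and at 7425 bp from *Apob* (pileup 10).

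Triglyceride synthesis had the highest peaks of both lists among the lipid genes. *Lpin2*, a phosphatidate phosphatase that makes diacylglycerol, held an odd peak of 775 bp with a pileup of 44 (chr17:71214316-71215090, 29.7-fold), reached by 1.70% of the odd list. It spanned the end of intron 1 and touched a 5′ UTR exon, with its summit 10136 bp from the nearest annotated start. A second odd peak in intron 4 (chr17:71225925-71226191, pileup 9) was 98.1% repeat-masked, and the third lay downstream, inside *Emilin2* (chr17:71254308-71254596, pileup 18, 12.5-fold). All 3 also lay inside the annotated lincRNA gene *Gm26561*, and 3.58% of genes of the length of *Lpin2* had as many odd peaks or more. The 200 bp around the highest summit held 10 bases of probe 9, in capitals.
*Lpin2*, odd, chr17:71214712-71214911, plus strand: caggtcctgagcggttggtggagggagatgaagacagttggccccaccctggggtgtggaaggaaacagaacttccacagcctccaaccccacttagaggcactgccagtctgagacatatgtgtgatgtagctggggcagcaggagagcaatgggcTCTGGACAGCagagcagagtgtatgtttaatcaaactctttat

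*Gpam* encodes the mitochondrial glycerol-3-phosphate acyltransferase that starts triglyceride synthesis. Its even peak (chr19:55103179-55104213) was the highest even peak at a lipid gene, with a pileup of 33 (22.3-fold), and 3.02% of the even list was as high or higher. It covered 1035 bp of intron 1, overlapped the antisense gene *AC110206.1* and had its summit 510 bp before an annotated start. Its odd peak lay over exon 9 (chr19:55087280-55087661, pileup 14), 15517 bp from the even peak. In the 200 bp around the even summit, capitals mark the reverse complement of the first 13 bases of probe 2.
*Gpam*, even, chr19:55103501-55103700, plus strand: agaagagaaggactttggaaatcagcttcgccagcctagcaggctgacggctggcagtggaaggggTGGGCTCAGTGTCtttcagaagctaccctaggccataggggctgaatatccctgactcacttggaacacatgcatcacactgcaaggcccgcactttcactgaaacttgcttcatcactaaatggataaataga

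*Agpat2*, *Lpin1* and *Dgat2* each had 1 odd peak. *Agpat2*, which makes phosphatidic acid, had a pileup of 21 (14.5-fold) in intron 5, where *Gm20532* is annotated as well (chr2:26593873-26594358). *Lpin1* had a pileup of 15 in intron 2 (chr12:16580455-16580677, 10.6-fold). *Dgat2*, which joins the last fatty acid to diacylglycerol, had a pileup of 15 in intron 7 (chr7:99154918-99155143, 10.6-fold), and 67.3% of the bases in this peak were G or C, with 58.0% repeat-masked. *Dgat1*, which carries out the same reaction, had no peak, with the nearest odd peak 27.4 kb away.

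Among the droplet proteins and lipases, *Plin2* and *Pnpla3* had peaks of both lists, and *Mgll* had the most odd peaks of all 45 genes. *Plin2* coats lipid droplets. Its odd peak reached a pileup of 29 (chr4:86656653-86657109, 19.8-fold) over exon 8 and touched the 3′ UTR, while its even peak had a pileup of 9 in intron 3 (chr4:86668226-86668505), 11116 bp away and 1730 bp from the 5′ end of the gene. At *Pnpla3*, a lipid droplet protein, the odd peak (chr15:84169712-84169916, pileup 9) and the even peak (chr15:84169028-84169234, pileup 10) were both in intron 1 and only 477 bp apart. This was the closest approach of the lists at any lipid gene, and the peaks did not overlap.

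*Mgll*, which cleaves monoacylglycerol in the last step of lipolysis, had 4 odd peaks, a number reached by 1.89% of genes of its length. Their pileups were 8 in intron 2 (chr6:88758460-88758659), 21 and 12 in intron 3 (chr6:88772886-88773404 and chr6:88802065-88802482) and 20 in the 3′ UTR (chr6:88827128-88827800). The peak with a pileup of 21 was among those without a 12-base probe run. *Pnpla2*, the adipose triglyceride lipase that takes the first step, had an odd peak with a pileup of 9 at 1815 bp past its end, inside *Cracr2b* (chr7:141462558-141462770). *Lipe*, the hormone-sensitive lipase, and *Plin5*, a droplet protein of oxidative tissues, had none.

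Fatty acid oxidation had a peak at 1 of 7 genes. *Cpt1a*, which controls the entry of fatty acids into mitochondria, had odd peaks with pileups of 9 in intron 1 (chr19:3336015-3336359), 10 in intron 5 (chr19:3361170-3361472) and 7 at 2939 bp downstream, inside *Tesmin* (chr19:3388672-3388871). The last was the lowest odd peak at a lipid gene, and 97.2% of the odd list was as high or higher. By number they stood out more, since 3.25% of genes of the length of *Cpt1a* had as many or more. The enzymes inside the mitochondrion, *Cpt2*, *Acadm*, *Acadl*, *Acadvl*, *Hadha* and *Hadhb*, had no peak of either list, with nearest odd peaks from 22.8 kb (*Acadvl*) to 519 kb (*Acadl*). The 7 genes had no even peak, which allows a share of up to 42.9%, and the share from genes of similar length was only 6.47%. *Hmgcs1*, the cholesterol synthesis enzyme of the list, had no peak within 31.8 kb.

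Among the lipoprotein, uptake and efflux genes, as many had an even as an odd peak, 3 of 9 each. *Scarb1*, the hepatic receptor for HDL, had an odd peak at its start (chr5:125340533-125340942, pileup 16, 11.2-fold), with the summit in exon 1 and 271 bp from the 5′ end, and a lower peak in intron 1 (chr5:125330868-125331096, pileup 8). *Apoa1*, the main HDL protein and the shortest of the 45 genes, had an odd peak with a pileup of 9 over exon 3 (chr9:46229003-46229367). In genes of its length, 9.12% had an odd peak. *Abca1*, which exports cholesterol to *Apoa1*, had odd peaks in intron 3 (chr4:53130079-53130540, pileup 19, 13.2-fold) and across the border of intron 2 and exon 3 (chr4:53132919-53133318, pileup 10). Its even peak lay in intron 25 (chr4:53070387-53070689, pileup 12, 8.54-fold), 59389 bp from the nearer odd peak.

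*Mttp*, which loads lipid onto nascent lipoproteins, had an even peak with a pileup of 9 in intron 12 (chr3:138109893-138110327), and *Cd36*, a fatty acid transporter, had an even peak with a pileup of 7 in intron 11 (chr5:17796532-17796731). Their nearest odd peaks were 17.9 and 25.8 kb away. *Apob*, *Apoe*, *Fabp1* and *Lrp1* had no peak. *Lrp1*, a remnant receptor gene of 83.0 kb, was the longest gene without one, although 49.1% of genes of its length had an odd peak. The 18 lipid genes without a peak had a median length of 18.9 kb, against 58.2 kb for the 27 with one. Their nearest odd peaks were at a median of 47.3 kb and their nearest even peaks at 173 kb. Peaks present in both lists, only 593 of 14258 odd peaks, were farther, at a median of 2086 kb over all 45 genes and at the least 39.1 kb, from *Insig1*. Such distances were not computed for all protein-coding genes.

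**Figure D4:**
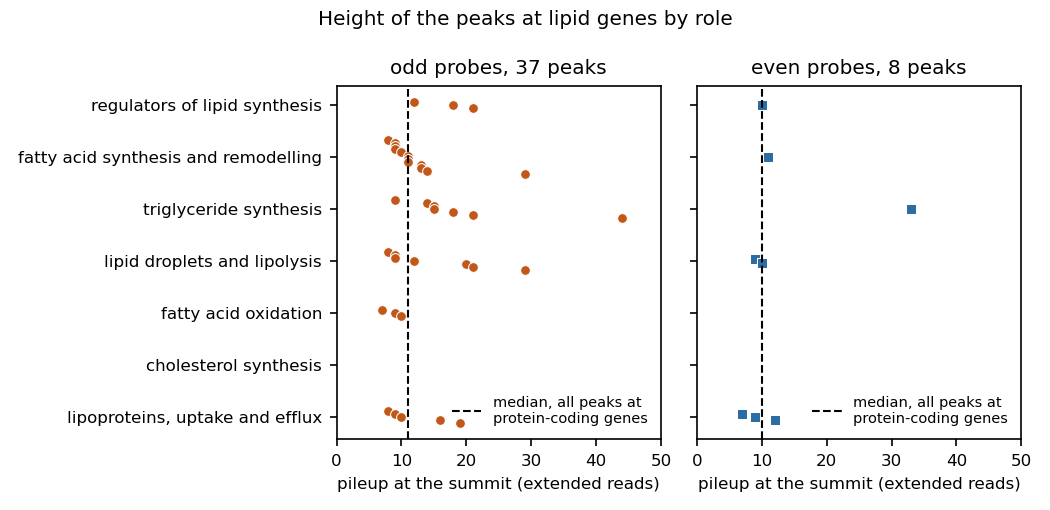
Pileup at the summit, in extended reads, of each odd (left) and even (right) peak at a lipid gene, by the role of the gene, with points spread vertically only to separate them. The dashed line is the median over peaks at all protein-coding genes, 11 for odd and 10 for even peaks. Triglyceride synthesis has the highest point in both panels (44 and 33), and the 3 odd points of fatty acid oxidation all lie at or below 10.

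As a whole, the peaks at lipid genes were about as high as other peaks. The median pileup was 12 for the 37 odd peaks against 11 at all protein-coding genes, and 10 for the 8 even peaks against 10. Repeat-masked sequence made up a median of 12.5% of the odd peaks against 13.6%, while the share of G and C was 52.2% against 46.4%. Their place relative to annotated starts was counted as well. Within 3000 bp of the start of any transcript lay 18 of the 37 odd peaks (48.6%, Wilson interval 33.4 to 64.1), against 34.6% of odd peaks at protein-coding genes, a share inside this interval. Within 1000 bp it was 8 (21.6%) against 18.7%. Starts of other genes counted too, so not all of the 18 peaks lay at a start of the lipid gene. The summit counted for *Fads2*, that of *Agpat2* and 1 of *Mgll*, for example, lay 13407, 9649 and 20956 bp from the nearest start of that gene. Introns outside promoters held 13 (35.1%, Wilson interval 21.8 to 51.2) against 52.4%, a share just above this interval, and the difference was not tested. By density, the windows of the lipid genes had 14.2 odd and 3.06 even peaks per Mb, and those of all protein-coding genes 7.13 and 1.74.

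Sequence motifs of lipid regulators were searched in the 300 bp around each summit, on both strands. The E-box CACGTG, to which ChREBP and SREBP can bind, was found at 3 of 37 odd peaks (8.11%), those of *Elovl5* in intron 1, *Plin2* in exon 8 and *Acacb* downstream of the gene, against 4.12% of odd peaks at protein-coding genes and 3.44% of the whole odd list. The sterol response element TCACNCCAC was found at 1, the peak in intron 3 of *Me1* (2.70%, against 1.11% and 1.10%). The HNF4 motif CAAAGTCCA was found at none, and 0.362% of odd peaks at protein-coding genes held it. None of the 8 even peaks held any of these motifs, which allows shares of up to 37.5%, and 3.66%, 0.861% and 0.592% of even peaks at protein-coding genes held the E-box, the sterol response element and the HNF4 motif. A match gives only the letters in this window.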

How the data were processed

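ChIRP-seq peak lists of 2 libraries were used, 1 per probe set. Per the submitters' processing notes, Novoalign (4.02.02), SAMtools (1.9) and MACS2 were used with mm10. Per the file headers, the authors ran MACS2 (2.1.1.20160309) separately for each library, with 101-bp reads extended to 200 bp, 1 read kept per position, the local background switched off, no control library and a q-value limit of 0.05. The deposited pileup is a signal, counted by the authors at the summit and not scaled between libraries. Its maximum was 400, the most that reads extended to 200 bp can reach with 1 read kept per position and strand. The deposited fold enrichment is a ratio to the background of the same library. The deposited −log10 values are the p-value and q-value of the peak caller. Their headings were damaged and were read by the column order of MACS2. For 1 even peak, the start contained letters and was recalculated as the end minus the length plus 1. Peaks on other sequences than chromosomes 1 to 19, X and Y were left out of the summaries over whole lists, which kept 14258 odd and 3635 even peaks.

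Windows, overlaps, categories and probe runs were computed with pysam 0.24.0, pandas 2.3.3, numpy 2.4.6 and scipy 1.17.1 in Python 3.11.15, and matplotlib 3.10.9 drew the plots. Categories followed the order promoter (3000 bp), 5′ UTR, 3′ UTR, exon, intron, downstream (300 bp) and intergenic. Sequences are from the RefSeq copy of GRCm38. The letters of the probes came from the study's probe list and were used only where *Gm19619* held them in full, so 11 of 14 probes were searched. The functions for windows, overlap and runs were tested on simulated data and gave the right answer in 100% of 1000, 1000 and 500 cases. Every lipid gene of the list is named, with genes that hold a peak of it, *Gm19619*, and genes of a second list with a fold enrichment of at least 20 or a peak in both libraries, except for results that are not reported here. The genes, lists and settings were chosen with earlier results of these data known. The pathway and transcription factor searches of the study were not repeated.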

Additional observations from a re-analysis of the deposited data

How the results depend on the processing

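The count of lipid genes depended most on the height required of a peak. With a fold enrichment of at least 10, 11 lipid genes had an odd and 1 an even peak (13 and 1 peaks), against sums of 5.82 and 0.803 from genes of similar length. Without the peaks that held a 12-base probe run, a setting chosen after seeing the data, 3 genes had an even peak, against a sum of 2.72. In the same setting, 21 genes had an odd peak, against a sum of 11.3. Probe runs of at least 10 bases were found in 18 odd peaks (48.6%, against 53.9% of odd peaks at protein-coding genes). They were also in 6 even peaks (75.0%, against 36.3%). Runs of at least 14 were in 1 odd peak (2.70%, against 5.52%) and 0 even peaks (against 7.15%). A promoter of 1000 bp held 8 odd peaks. Of the recomputed values, 49 stayed within 1.5 times of those given, the 6 even peaks, the 21 genes and the sums of 2.72 and 11.3 included. Most came from a stricter q-value, a filter on pileup and length, the gene body alone, a window of 20000 bp or the summit alone. Others came from wider limits on gene length and from length with the share of G and C (added after seeing the data). Further ones came from another overlap rule and all 14 probes (added likewise). Over 10 alternatives, observed over summed genes ranged from 1.45 to 1.89 for odd and from 1.10 to 2.60 for even peaks. With 1 library per probe set, no replicate could be left out. No paired analysis was possible because the results come from peak lists of single libraries with no test. With 11.4% and 10.7% of reads left after duplicates were removed, a peak absent from a list was not detected at this depth, which does not show that it is absent. Without a control library, regions that gather reads in any library cannot be told apart from those retrieved with the RNA.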

Other observations

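A second list of 69 further lipid genes, covering the same roles except the regulators, was counted in the same way. Odd peaks lay at 20 of them (29.0%, against 27.0% of all protein-coding genes), even peaks at 7 (10.1%, against 7.67%) and a peak of either list at 24 (34.8%, against 30.4%). These shares were near those of all genes without regard to length. From genes of similar length the sums were 15.4 for odd and 3.76 for even peaks, and the counts were 1.30 and 1.86 times these sums. By role, odd peaks lay at 5 of 8 genes of fatty acid synthesis and remodelling and 3 of 5 of triglyceride synthesis. They lay at 0 of 9 genes of lipid droplets and lipolysis (first list 4 of 6) and 4 of 13 of fatty acid oxidation (first list 1 of 7). For cholesterol synthesis the odd count was 3 of 12, and for lipoproteins, uptake and efflux 5 of 22. The Wilson intervals of the 2 oxidation shares overlapped (12.7 to 57.6% and 2.57 to 51.3%), and those of the droplet shares did not (0 to 29.9% and 30.0 to 90.3%). Sums from genes of similar length were not made by role for the second list, and the differences were not tested. Even peaks lay at 2 of the 9 droplet, 3 of the 13 oxidation and 2 of the 12 cholesterol synthesis genes. They lay at 0 of 22 genes of lipoproteins, uptake and efflux, against 3 of 9 in the first list. For fatty acid synthesis and remodelling the even count was 0 of 8, and for triglyceride synthesis 0 of 5. The highest odd peaks were at *Apoa2*, an HDL protein, with a pileup of 49 (33.0-fold) and its summit 18 bp upstream of the gene, and at *Hsd17b4*, an enzyme of peroxisomal oxidation, with a pileup of 43 in intron 1. *Hsd17b4* also had an even peak with a pileup of 8 that overlapped the odd peak, and it was the only gene of either list with a peak in both libraries at the same place. *Gpat4*, an acyltransferase of the endoplasmic reticulum, had an odd peak with a pileup of 39 in intron 1 that held 13 bases of probe 1. *Elovl2*, an elongase of very long polyunsaturated fatty acids, had one with a pileup of 39, 2214 bp downstream of the gene. *Etfa*, which passes electrons from fatty acid oxidation to the respiratory chain, had an even peak with a pileup of 37 in intron 9 that held 13 bases of probe 2.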
